A study of Mus musculus with 16 samples.

Results

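The primary cilium and intraflagellar transport genes examined here are 38 genes of the cilium machinery through which Smoothened signals, chosen by symbol from the 55146 genes of the deposited table and read across 4 treatment groups of mouse mammary tumours. All 38 symbols were found, each in 1 row. They comprise 11 genes of intraflagellar transport complex B (IFT-B), 6 of complex A (IFT-A), 4 kinesin motors, 2 subunits of the dynein-2 motor, 10 genes of the BBSome and its assembly, and 5 genes that carry or restrain Hedgehog signals at the cilium. Of these, 34 reached 1 FPKM (fragments per kilobase of transcript and per M mapped fragments, M standing for mega) in at least 4 libraries and entered the tests together with all such genes of the table, 15105 in all. The other 4, Kif17, Kif7, Bbs10 and Gpr161, were too low for that and were examined one by one.

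The tumours came from MMTV-PyMT mice aged 12 weeks, in which the mouse mammary tumour virus promoter drives the polyoma middle T oncogene in mammary epithelium, and were reimplanted into the fourth mammary fat pad of FVB recipients, so every group, the controls included, carries this transgene in the tumour and an immunocompetent host. Recipients received vehicle, anti-PD-L1, an antibody that blocks an immune checkpoint ligand, 2 times a week at 5 mg/kg, sonidegib, an inhibitor of Smoothened, at 20 mg/kg every day, or both agents together (the combination), for 28 days. Each group holds 4 libraries of whole tumour RNA, 1 per numbered tumour. Whether the numbered tumours of a group had different donors is not in the labels, and the p-values therefore rest on a spread between tumours that may share one. In whole tumours, fewer cells of a type and less RNA per cell cannot be told apart.

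The primary cilium is a single, non-motile projection of the cell membrane built around microtubules that grow from the mother centriole. IFT-B with the kinesin-2 motor carries cargo to the tip, IFT-A with dynein-2 carries it back, and the BBSome moves membrane proteins out of the cilium. In vertebrates, Patched leaves the cilium and Smoothened enters it when Hedgehog ligand binds, and Gli proteins are processed there. Cilia are lost from many mammary carcinoma cells and are commonly kept by stromal fibroblasts.

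The libraries held an estimated 34.8 to 57.8 M fragments each, so that 1 fragment on a transcript of 2 kb was worth 0.0086 to 0.0144 FPKM. The library vehicle 3 stood apart: 11361 genes reached 1 FPKM in it against 13107 to 14784 in the other 15. Deviations were also taken from each gene's median over all libraries on the log2(FPKM + 1) scale. Their median was -0.764 in vehicle 3, against -0.129 to 0.149 elsewhere. The comparisons with vehicle and the interaction are also summarised without it. Luminal epithelial markers (Epcam, Krt8, Krt18 and others, 9 of 9 measured) summed to 635 to 2624 FPKM in vehicle tumours and 1037 to 2160 FPKM in combination tumours. The 5 B cell markers summed to at most 0.45 FPKM in any library. Genes of motile cilia were scarce, with 12 of the 16 measured below 1 FPKM in every library; their regulator Foxj1 reached 10.3 FPKM in vehicle 4.

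Because the members are known to share promoter elements, their start regions are shown before their levels. RFX transcription factors bind the X-box, and the RefSeq promoter table (GRCm38.p6, 250 bases before to 50 after each start) held entries for 34 of the 38 genes. Its short form GTTGCC, searched on both strands, occurred in 14 of the 34 (41.2%) and in 14.1% of the 27025 genes of the table. Its paired form, in which GTTNCC stands 2 bases before the inverted GGNAAC and which can contain the short form, occurred in 1 of the 34 (2.94%), Bbs7, against 0.529% of all genes. A match describes letters in the window and does not show a bound site. The lines below give, with the short form in capitals, windows of up to 30 bases around matches in genes of different roles: the small GTPase Arl13b (chr16:62847204-62847233, minus strand), the anterograde motor Kif3a (chr11:53567259-53567288, plus), the accessory motor Kif17 (chr4:138262166-138262195, plus), the IFT-B GTPase Ift27 (chr15:78174073-78174102, minus) and Evc, a Smoothened partner (chr5:37337047-37337076, plus, the strand opposite to the gene).
Arl13b: acagacgctccaGTTGCCtagttaccagag
Kif3a: caccccgcaggcGTTGCCccagtctagcgt
Kif17: gacgtcacggagGTTGCCcagcaacggcga
Ift27: gggttgatgatgGTTGCCaggagcctgttt
Evc: ctgagcgttcagGTTGCCctgagtcctgag

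Upstream sequence is also shown for 3 of the 4 members that passed the test between combination and vehicle tumours, Bbs7, Ift20 and Ift74. The stretches end at the base before the annotated start of each gene in GENCODE M21 and run along the gene's strand; capitals mark the paired X-box form, 121 bases before the RefSeq start of Bbs7. They cover chr3:36613478-36613639 (minus strand), chr11:78536111-78536360 (plus) and chr4:94614241-94614490 (plus) of GRCm38.p6. Neither form was found in the windows of Ift20 and Ift74.
Bbs7: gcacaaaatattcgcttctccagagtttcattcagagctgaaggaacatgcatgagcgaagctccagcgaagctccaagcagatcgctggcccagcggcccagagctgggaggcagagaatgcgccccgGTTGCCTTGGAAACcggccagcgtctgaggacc
Ift20: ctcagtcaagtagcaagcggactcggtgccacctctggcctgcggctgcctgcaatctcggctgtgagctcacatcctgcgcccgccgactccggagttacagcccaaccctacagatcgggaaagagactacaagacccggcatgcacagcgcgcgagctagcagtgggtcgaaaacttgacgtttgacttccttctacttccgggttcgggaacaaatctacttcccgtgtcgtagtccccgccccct
Ift74: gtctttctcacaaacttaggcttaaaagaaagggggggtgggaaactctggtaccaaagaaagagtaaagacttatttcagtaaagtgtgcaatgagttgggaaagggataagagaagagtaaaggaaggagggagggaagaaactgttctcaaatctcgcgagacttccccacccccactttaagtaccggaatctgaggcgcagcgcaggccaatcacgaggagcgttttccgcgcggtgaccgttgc

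Levels of the members, in FPKM and therefore per length, spanned more than 2 orders of magnitude. The most abundant was Ift46, an IFT-B core subunit, with a median of 52.0 FPKM over the 16 libraries and a range of 16.8 to 60.6. Ift20, the IFT-B subunit that also sits at the Golgi and sorts cargo for the cilium, followed with a median of 24.0 FPKM (5.98 to 53.3), and Ift43, an IFT-A subunit, with 10.9 FPKM (5.04 to 14.4). These ranges overlapped over the libraries. Read within each of the 16 libraries, Ift20 lay above Ift43 in all, and Ift46 above Ift20 in all but combination 4 (51.5 against 53.1 FPKM). The order of other neighbours in the list was not compared in this way.

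The motors were lower. Median levels were 3.98 FPKM for Kif3a and 3.504 FPKM for Kif3b, the paired motor subunits of kinesin-2, and 4.04 FPKM for Dync2h1 and 3.22 FPKM for Dync2li1, the heavy and light intermediate chains of dynein-2. Kif7, the kinesin that organises Gli proteins at the cilium tip, ranged from 0.275 to 0.695 FPKM, and Kif17 from 0.0243 to 0.229 FPKM, the lowest of the 38. The plot of levels by group shows that the anterograde and retrograde motors lay in the same range.

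**Figure D1:**
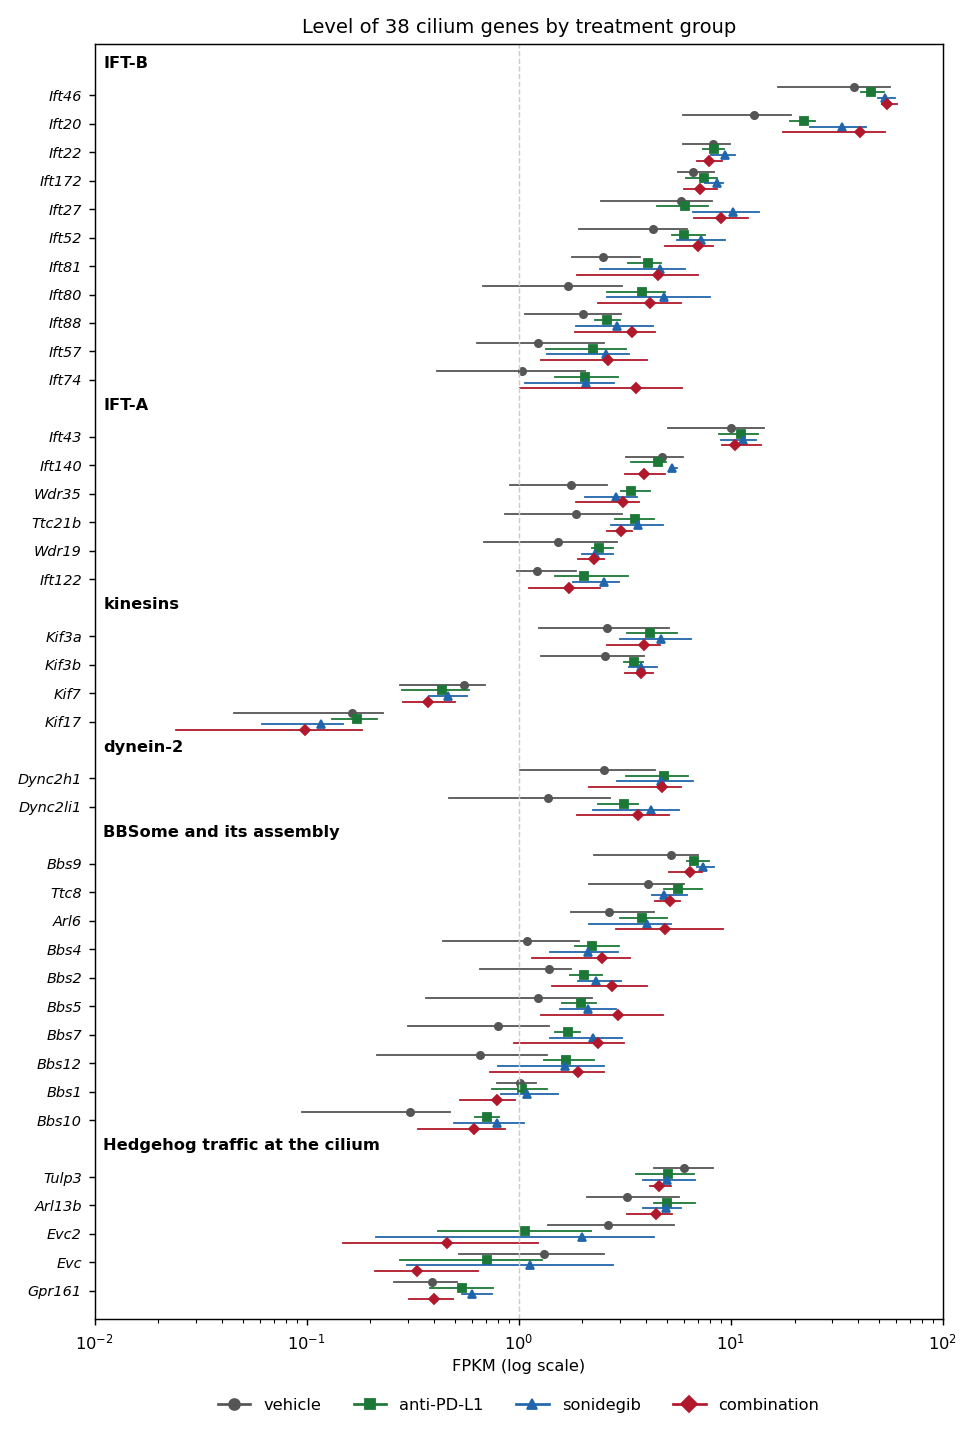
Level of each of the 38 genes in the 4 groups, ordered by role and by level; points are group means of 4 libraries, lines run from the lowest to the highest library, and the axis is FPKM on a log scale with 1 FPKM dashed. Vehicle lines reach lowest for most IFT and BBSome genes, and Evc and Evc2 show the opposite order, with combination tumours lowest.

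Within the BBSome and its assembly, Bbs9 and Ttc8, both core subunits, were the most abundant at medians of 6.75 and 4.94 FPKM, and the chaperonin-like Bbs10 was the least at 0.617 FPKM. Among genes of Hedgehog traffic, Tulp3, which brings receptors into the cilium with IFT-A, had a median of 4.81 FPKM and Arl13b, the GTPase of the ciliary membrane, 4.42 FPKM. Gpr161, a receptor that restrains Hedgehog output from the cilium, ranged from 0.259 to 0.756 FPKM. Evc2 and Evc, whose products form a complex that relays Smoothened activity at the base of the cilium, had the widest ranges of these 5 genes by the ratio of highest to lowest library, from 0.149 to 5.43 and from 0.210 to 2.79 FPKM.

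The first comparison asked whether the 4 groups differed at all. By the F test over the 3 contrasts, 0 of the 34 tested members passed at an adjusted p of 0.05, where 3 genes (0.0199% of 15105) did, and the lowest adjusted p among the members came to 0.162. Unadjusted, 10 of 34 (29.4%) had a p under 0.05 against 23.7% of all tested genes. The members with the lowest p were Ift20, Dync2li1 and Bbs7 (each with an adjusted p of 0.162).

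Combination tumours were set against vehicle tumours to ask what both agents together did. In this comparison 4 members passed, Ift20, Ift74, Dync2li1 and Bbs7, and all 4 rose. They came from IFT-B (2 genes), dynein-2 and the BBSome, and the largest difference was that of Ift20. The share passing, 11.8% of the 34, was close to the 11.3% of all tested genes that passed, 10.3% of them upward, and so is not a result particular to these genes.

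Ift20 was at 12.6, 13.5, 5.98 and 19.3 FPKM in the 4 vehicle libraries and at 17.7, 53.3, 39.0 and 53.1 FPKM in the 4 combination libraries. The groups overlapped only through combination 1, which was below vehicle 4, while combination 2, 3 and 4 were above every vehicle library. Ift20 rose by 1.58 ± 0.35 (log2 difference of log2(FPKM + 1) ± SE, here and below; adjusted p = 0.0342), from 12.8 ± 5.45 to 40.8 ± 16.7 FPKM (mean ± SD, n = 4 each; limma). With the GC trend of each library removed the difference was 1.23 (adjusted p = 0.0474), the one member that still passed under that setting; Ift74 was then at 0.41 (adjusted p = 0.192), Bbs7 at 0.34 (adjusted p = 0.164) and Dync2li1 at 0.56 (adjusted p = 0.0957).

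Ift74, which with Ift81 forms the tubulin-binding module of IFT-B, was at 0.498, 1.18, 0.414 and 2.05 FPKM in vehicle tumours and at 1.01, 4.76, 2.69 and 5.92 FPKM in combination tumours. Combination 1 lay below 2 of the vehicle libraries, and the other 3 lay above all of them. It rose by 1.10 ± 0.34 (adjusted p = 0.0447, limma). Cufflinks divided reads between overlapping genes by a model, and Ift74 shares 13492 bases with Lrrc19 on the opposite strand, whose median level was 0.134 FPKM.

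Dync2li1 was at 1.42, 0.930, 0.468 and 2.71 FPKM with vehicle and at 1.89, 3.28, 5.10 and 4.32 FPKM with the combination. Bbs7, a BBSome core subunit, was at 0.490, 1.01, 0.301 and 1.38 FPKM with vehicle and at 0.955, 2.90, 2.44 and 3.15 FPKM with the combination. In both genes combination 1 was again the library inside the vehicle range. Dync2li1 rose by 0.99 ± 0.29 (adjusted p = 0.0412) and Bbs7 by 0.89 ± 0.25 (adjusted p = 0.0374).

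**Figure D2:**
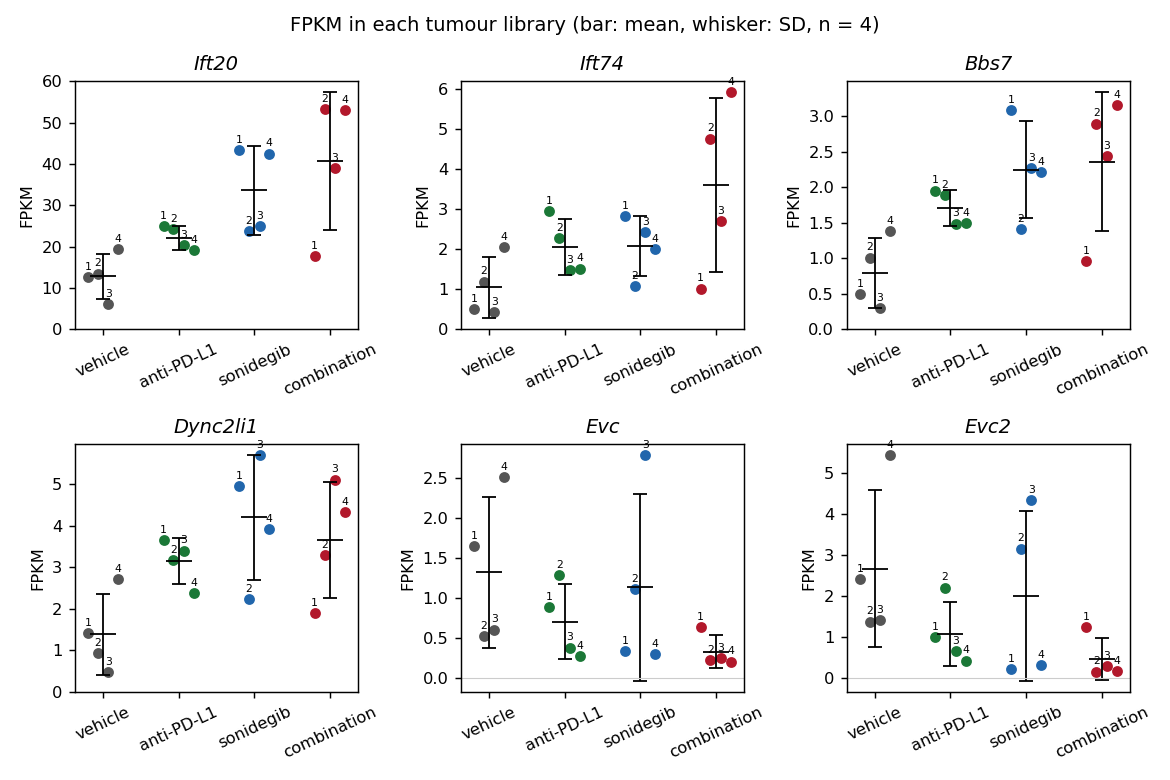
FPKM of 6 members in each of the 16 libraries, numbered as in the labels, with the group mean as a bar and the SD as a whisker (n = 4). Combination 1 sits inside the vehicle range for Ift20, Ift74, Bbs7 and Dync2li1, and all 4 combination libraries of Evc2 lie below the lowest vehicle library.

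These 4 calls depended on single libraries. Without vehicle 3, the library that stood apart, 0 members passed (and 3 of all tested genes), with differences of 1.28 for Ift20, 0.95 for Ift74, 0.79 for Dync2li1 and 0.75 for Bbs7 (adjusted p from 0.114 to 0.142). Counts of 0 were also obtained without vehicle 1, vehicle 2, combination 2 or combination 4, where 3 to 10 of all tested genes passed (0.0199% to 0.0662%), and without combination 3, 1 member and 3.38% of all genes passed. In the other direction, 21 members passed without vehicle 4 (32.8% of all genes) and 16 without combination 1 (28.0%), and the difference for Ift20 was then 1.79 and 1.92.

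Without vehicle 4, members also passed in the other comparisons with vehicle: 14 against 26.0% of all genes for anti-PD-L1 and 18 against 26.3% for sonidegib. Without anti-PD-L1 1, 2 or 3, or without sonidegib 4, all of which enter only through the shared estimate of spread, 2 members passed between combination and vehicle, beside 6.39% to 7.22% of all genes. Removing the GC trend left 1 member and 3.65% of all genes, and removing the GC and length trends left 0 and 0.192%.

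Of the remaining members, Ift80, an IFT-B subunit, came next with 0.96 ± 0.31 (adjusted p = 0.0505) and did not pass. Altogether 19 of the 34 (55.9%) had an unadjusted p under 0.05, 17 of them higher and 2 lower, against 33.6% of all tested genes. Without vehicle 3 these were 10 of 34 (29.4%) against 27.1%. Ift88, the IFT-B subunit whose loss abolishes cilia, was at 1.81, 2.08, 1.07 and 3.05 FPKM with vehicle and at 1.84, 3.37, 4.41 and 4.04 FPKM with the combination. Its groups overlapped and its difference was 0.56 ± 0.25 (adjusted p = 0.124). It turned to -0.14 when the GC trend was removed, a step that also re-centres each library. Kif3a differed by 0.53 ± 0.28 (adjusted p = 0.192). Arl13b differed by 0.42 ± 0.24 (adjusted p = 0.226), and by -0.22 with the GC trend removed.

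Between combination and vehicle the members' median difference was 0.57, beside 0.26 over all tested genes, with 28 of 34 higher, where 68.3% of all genes were higher by any amount. Scaling changed these levels. With median-of-ratios scaling the median of all genes was 0.01, that of the members 0.32, and 26 of 34 were higher. Without vehicle 3 the medians were 0.34 over the members and 0.07 over all genes, and 27 of 34 were higher. By role the medians were 0.65 for IFT-B (11 tested), 0.36 for IFT-A (6), 0.50 for the kinesins (only 2, Kif3a and Kif3b) and 0.87 for dynein-2 (2). They were 0.63 for the BBSome genes (9) and -0.51 for Hedgehog traffic, in which Arl13b alone of 4 tested was higher. Of the members under the filter, Kif7 and Kif17 were lower in mean FPKM (-0.179 and -0.0655). Bbs10 and Gpr161 were higher (0.309 and 0.0115), and none of the 4 passed after adjustment.

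Evc2 and Evc were the 2 members that lay lower at an unadjusted p under 0.05, and neither passed the adjusted threshold. Evc2 was at 2.40, 1.37, 1.40 and 5.43 FPKM with vehicle and at 1.24, 0.149, 0.291 and 0.164 FPKM with the combination. All 4 combination libraries lay below the lowest vehicle library, as in 1.27% of all tested genes. The difference was -1.25 ± 0.46 (adjusted p = 0.0769, limma). Evc was at 1.65, 0.525, 0.608 and 2.51 FPKM with vehicle and at 0.641, 0.224, 0.253 and 0.210 FPKM with the combination, a difference of -0.73 ± 0.32 (adjusted p = 0.121), and its groups overlapped through combination 1.

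In the single-agent groups both genes split by library. With anti-PD-L1, Evc2 was at 0.999, 2.20, 0.653 and 0.418 FPKM; with sonidegib it was at 0.213, 3.15, 4.33 and 0.304 FPKM, so that sonidegib 2 and 3 lay in the vehicle range and sonidegib 1 and 4 in the combination range. Evc followed the same libraries, at 0.344, 1.11, 2.79 and 0.299 FPKM with sonidegib. The genes lie head to head on chromosome 5, Evc at 37289098 to 37336894 on the minus strand and Evc2 at 37338499 to 37425055 on the plus strand (GRCm38), with starts 1605 bases apart. Evc also shares 3036 bases with Crmp1 on the opposite strand (median 0.111 FPKM). The log2(FPKM + 1) values of Evc and Evc2 had a Pearson r of 0.948 over the 16 libraries, which share depth and treatment. Under median-of-ratios scaling Evc2 passed (-1.45, adjusted p = 0.0356), under quantile normalization both did (-1.47, adjusted p = 0.0352, and -0.92, adjusted p = 0.0418), as did Ift140 (-0.54, adjusted p = 0.0458), while Ift74 did not (0.82, adjusted p = 0.0552), and with the GC trend removed neither did (-1.15, adjusted p = 0.105, and -0.62, adjusted p = 0.210).

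Tulp3 was the other tested Hedgehog traffic gene, at 6.63, 8.26, 4.75 and 4.34 FPKM with vehicle and 5.26, 4.16, 4.87 and 4.16 FPKM with the combination. The groups overlapped, and the difference was -0.29 ± 0.23 (adjusted p = 0.390). It was -0.60 (adjusted p = 0.0815) with median-of-ratios scaling, -0.63 (adjusted p = 0.0714) with quantile normalization and -0.74 (adjusted p = 0.0862) with the GC trend removed, and did not pass in these fits.

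Tumours given sonidegib alone were set against vehicle tumours, a comparison that bears on the inhibitor of Smoothened without the antibody. No member passed (0 of 34; 0.0% of all tested genes), the lowest adjusted p being 0.127, and 19 of 34 (55.9%) had an unadjusted p under 0.05 against 27.3% of all genes. The lowest p belonged to Dync2li1 (1.16 ± 0.29), Ift20 (1.37 ± 0.35) and Ift80 (1.10 ± 0.31), each with an adjusted p of 0.127 in limma. Ift20 was at 43.4, 23.7, 24.9 and 42.5 FPKM with sonidegib, all 4 above the highest vehicle library, as were those of Bbs7 (3.08, 1.41, 2.27 and 2.22 FPKM) and Bbs2. This held for 3 of the 34 members and for 6.0% of all tested genes. Dync2li1, at 4.94, 2.24, 5.70 and 3.91 FPKM, overlapped vehicle 4 through sonidegib 2.

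The members' median difference between sonidegib and vehicle was 0.53 beside 0.33 over all genes, and 31 of 34 were higher where 77.8% of all genes were. With median-of-ratios scaling 25 of 34 were higher, and with the GC trend removed 22 were. The share of all genes that were higher under either setting is not set beside these counts. With the GC trend removed, 6 members (17.6%) had an unadjusted p under 0.05 against 19.9% of all genes. Of the genes named whatever their test, Kif3a differed by 0.74 ± 0.28 (adjusted p = 0.136), Arl13b by 0.55 ± 0.24 (adjusted p = 0.163) and Ift88 by 0.39 ± 0.25 (adjusted p = 0.292). Tulp3 (-0.20 ± 0.23), Evc (-0.18 ± 0.32) and Evc2 (-0.46 ± 0.46) had adjusted p from 0.514 to 0.728. Under median-of-ratios scaling, quantile normalization and removal of the GC trend Tulp3 was at -0.59, -0.58 and -0.69, with adjusted p from 0.173 to 0.196.

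Anti-PD-L1 alone also gave 0 of 34 (0.0% of all tested genes), with a lowest adjusted p of 0.158, and 12 of 34 (35.3%) at an unadjusted p under 0.05 against 24.6% of all genes. The lowest p belonged to Ttc21b (0.71 ± 0.23) and Wdr35 (0.70 ± 0.23), both IFT-A subunits, and to Dync2li1 (0.88 ± 0.29), each with an adjusted p of 0.158 in limma. Wdr35 was at 1.38, 2.16, 0.914 and 2.62 FPKM with vehicle and at 4.16, 3.18, 3.12 and 3.05 FPKM with anti-PD-L1. Its groups did not overlap, which was also so for Bbs7, 2 of the 34 against 3.39% of all genes.

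The median difference between anti-PD-L1 and vehicle was 0.46 over the members and 0.30 over all genes, with 30 of 34 higher beside 76.1%. Kif3a differed by 0.61 ± 0.28 (adjusted p = 0.189), Arl13b by 0.55 ± 0.24 (adjusted p = 0.180) and Ift88 by 0.31 ± 0.25 (adjusted p = 0.441), while Tulp3 differed by -0.20 ± 0.23, Evc by -0.39 ± 0.32 and Evc2 by -0.76 ± 0.46 (adjusted p from 0.302 to 0.603). Ift88 was at -0.33, Arl13b at -0.06 and Tulp3 at -0.68 (adjusted p = 0.358) once the GC trend was removed, and Tulp3 at -0.56 with either scaling. Median-of-ratios scaling alone put Ift88 at 0.04 and Arl13b at 0.23. Without vehicle 3, members at an unadjusted p under 0.05 numbered 3 for anti-PD-L1 and 6 for sonidegib. The share of all tested genes in those fits is not set beside these counts, so they are not read as a result about the members. The median over members and over all genes was then 0.28 and 0.12 for anti-PD-L1 and 0.35 and 0.15 for sonidegib. The 3 comparisons with vehicle share the 4 vehicle libraries, so likeness between them is not separate evidence.

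Comparisons among the treated groups found little. Between the combination and anti-PD-L1, 0 of 34 passed (0.00662% of all genes) and 0 had an unadjusted p under 0.05, where 5.78% of all genes did. The lowest p belonged to Ift20 (0.74 ± 0.35), Ift27 (0.48 ± 0.30) and Ift74 (0.47 ± 0.34), with adjusted p from 0.837 to 0.868 in limma. The median was 0.00 over the members and -0.05 over all genes, with 17 members higher and 17 lower, where 43.7% of all genes were higher. All 6 IFT-A genes lay a little below, from -0.17 to -0.06.

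Between the combination and sonidegib, 0 of 34 passed (0.0% of all genes; 0 at an unadjusted p under 0.05, against 4.28%), with a lowest adjusted p of 0.959. Ift140, an IFT-A core subunit, had the lowest p (-0.37 ± 0.20), at 5.23, 5.23, 5.59 and 5.15 FPKM with sonidegib and 4.90, 3.17, 4.24 and 3.36 FPKM with the combination. Its groups did not overlap, as in 2.44% of all genes. Ift140 shares 25890 bases with Tmem204 on the opposite strand, which had a median of 2.01 FPKM. Ift122 (-0.38 ± 0.22) and Evc (-0.55 ± 0.32) followed, both with overlapping groups. The members' median was -0.05, that of all genes -0.07, and 14 of 34 were higher, where 40.0% of all genes were.

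Between sonidegib and anti-PD-L1, 0 of 34 passed (0.0% of all genes), every adjusted p being 1.0, and 1 member had an unadjusted p under 0.05, against 2.09% of all genes. That was Ift27 (0.65 ± 0.30), followed by Ift20 (0.54 ± 0.35) and Ift122 (0.24 ± 0.22). Ift27, a small GTPase that also releases the BBSome from the cilium, was at 5.71, 4.50, 6.27 and 7.78 FPKM with anti-PD-L1 and 12.0, 8.85, 6.63 and 13.6 FPKM with sonidegib, and overlapped only through sonidegib 3. Ift140 (0.20 ± 0.20) was the 1 member whose groups did not overlap, against 2.24% of all genes higher in this way. The medians were 0.12 over the members and 0.01 over all genes, with 26 of 34 higher, where 52.4% of all genes were.

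The interaction asked whether the effect of both agents differed from the sum of their single effects. No member passed (0 of 34; 0.00662% of all genes), with a lowest adjusted p of 0.485, and 4 had an unadjusted p under 0.05 against 9.88% of all genes. The lowest p belonged to Ttc21b (-0.91 ± 0.32), Ift122 (-0.81 ± 0.31) and Dync2li1 (-1.04 ± 0.42). The interaction was below 0 for 33 of 34 members and above 0 for 20.5% of all genes, with medians of -0.45 and -0.35. It subtracts both single-agent groups and adds vehicle back, so the low vehicle 3 enters it directly. Without that library 0 members passed, 2 had an unadjusted p under 0.05 (5.88% against 5.71% of all genes), 30 of 34 were below 0, and the medians were -0.28 and -0.17.

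The 4 members under the 1 FPKM filter were tested singly with exact two-sided permutation tests of mean FPKM, 24 tests in all, in which 4 against 4 libraries cannot give a p below 0.0286. Bbs10 was at 0.332, 0.323, 0.0951 and 0.474 FPKM with vehicle, at 0.711, 0.811, 0.700 and 0.620 FPKM with anti-PD-L1 and at 1.06, 0.496, 0.983 and 0.613 FPKM with sonidegib. All libraries of both single-agent groups were above all vehicle libraries (differences of 0.405 and 0.482 FPKM, exact permutation p = 0.0286, Benjamini-Hochberg adjusted p = 0.171 over the 24). Of the genes that passed the filter, 3.39% were separated in this way with anti-PD-L1 and 6.0% with sonidegib. The permutation tests used FPKM as deposited, without further scaling. With the combination the difference was 0.309 FPKM (exact permutation p = 0.0571, adjusted 0.274).

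Gpr161 was at 0.298, 0.484, 0.512 and 0.259 FPKM with vehicle, at 0.748, 0.544, 0.560 and 0.556 FPKM with sonidegib and at 0.382, 0.425, 0.303 and 0.489 FPKM with the combination. Sonidegib libraries were above all others in both comparisons (differences of 0.214 from vehicle and -0.202 of the combination from sonidegib, exact permutation p = 0.0286, adjusted 0.171). Of the genes that passed the filter, 6.0% and 2.44% were separated in the same direction in these 2 comparisons. Kif7 averaged 0.553 ± 0.189 FPKM with vehicle and 0.374 ± 0.0931 with the combination (n = 4 each, exact permutation p = 0.143), and no test of Kif7 or Kif17 had an adjusted p below 0.343.

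Downstream of the cilium, the readouts of Hedgehog signalling differed in level, Gli1 and Hhip being low in every group and Ptch1 at a few FPKM. Gli1, the target most used as a readout, lay between 0.0155 and 0.324 FPKM in all 16 libraries, with 0.0350 to 0.172 in vehicle tumours and 0.0166 to 0.324 with sonidegib. Hhip, a target that sequesters ligand, was listed at 0 in 10 libraries and at most at 0.0133 FPKM in the others. Ptch1, receptor and target, was at 3.52 ± 1.28 FPKM with vehicle, 3.20 ± 0.835 with sonidegib and 2.58 ± 0.528 with the combination (n = 4 each), and its differences from vehicle of -0.08 ± 0.23 and -0.30 ± 0.23 did not pass (adjusted p = 0.844 and 0.376, limma). Smo, the drug's target, was at 17.98 ± 6.19 FPKM with vehicle, 15.6 ± 2.63 with sonidegib and 17.8 ± 3.75 with the combination, with adjusted p of 0.665 and 0.973. Within the wider Hedgehog list, 0 of 9 tested genes passed in any comparison with vehicle. Of all tested genes, 0.0% passed with either single agent and 11.3% with the combination. The other 7 of the 16 measured genes, Gli1 and Hhip among them, stayed below 1 FPKM in every library and were not tested.

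Other genes of the organelle were read as counts beside the members. In the comparison of combination with vehicle, where 11.3% of all tested genes passed (and 3 genes in all without vehicle 3), list counts are read against that share. Of 17 tested further IFT and BBSome genes, 7 passed, all higher, among them Dynlrb1 (1.62), Tctex1d2 (1.59) and Lztfl1 (1.33). Dynlrb1 and Tctex1d2 are dynein light chains, the first of them also part of cytoplasmic dynein, and Lztfl1 regulates BBSome entry. The transition zone, the gate at the cilium base, had 0 of 19. Basal body and ciliogenesis genes had 1 of 24, Cep97 (0.83, adjusted p = 0.0392), which caps the mother centriole and restrains cilium growth, and cilium disassembly had 0 of 10, with Nde1 (0.69, adjusted p = 0.0975) nearest. All these lists had 0 in the comparisons of either single agent with vehicle. The lists were chosen with earlier results of these data known.

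The members varied together over the 16 libraries. The median Pearson r of log2(FPKM + 1) over the 561 pairs of tested members was 0.616. The same value was not computed for pairs of all tested genes, so it is not shown to be particular to the members. For Ift20 the median r was 0.761 with the other members and 0.438 with all other tested genes. Bbs4 followed the others most closely (median r of 0.860 with the other members), while Tulp3 (-0.416), Evc2 (-0.247), Evc (-0.073) and Bbs1 (-0.044) did not follow them. Nearest to Ift20 among the 15104 other tested genes were Dcaf13 (r = 0.984), Dnajc18 (0.983), Wdr92 (0.981), Skp1a (0.977) and 0610009B22Rik (0.971), where the median gene had 0.438. For Evc2, chosen for this after its values were seen, Evc came first (0.948), then Cryzl2 (0.892). These correlations describe 16 libraries that differ in treatment, depth and base composition.

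Base composition moved with the members' levels. The tested members' longest transcripts had a median GC content of 46.6% (39.9% to 56.9%), beside 49.3% over the tested genes, and a median length of 3511.5 beside 2908 bases. Of the members, 23 were under 50% GC; their median difference between combination and vehicle was 0.61, beside 0.52 over all genes under 50%, and they held all 4 calls, where 16.8% of such genes passed. The 11 at or above 50% had a median of 0.09, beside -0.03 over all such genes, and 0 calls, where 4.82% passed. With the GC trend of each library removed, the members' median exceeded that of all genes by 0.10 instead of 0.31, 21 of 34 were higher, and 9 (26.5%) had an unadjusted p under 0.05, against 30.0% of all genes.

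**Figure D3:**
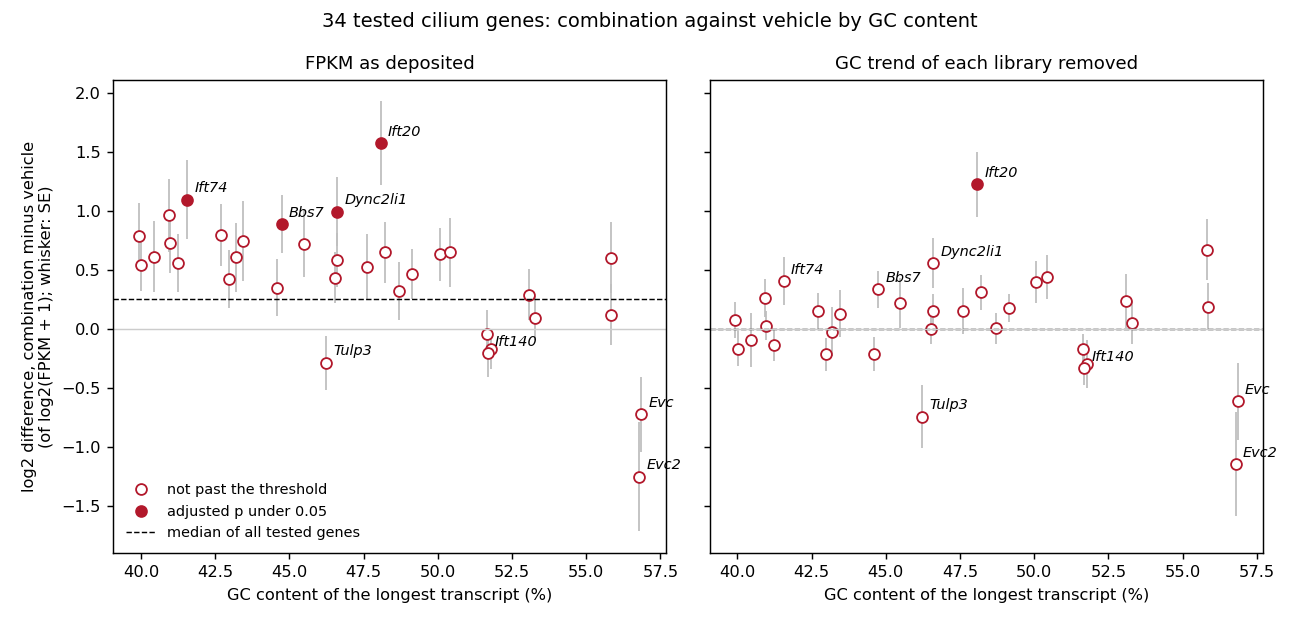
Difference between combination and vehicle on the log2(FPKM + 1) scale against GC content of the longest transcript (%), for the 34 tested members, as deposited (left) and with the GC trend of each library removed (right); whiskers are SE, filled points have an adjusted p under 0.05 and the dashed line is the median of all tested genes. On the left, members under 50% GC lie mostly above the dashed line and Evc and Evc2, at the highest GC, lie lowest; on the right Ift20 alone is filled.

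The same held library by library. In each library a GC slope was taken as the change in log2 deviation per unit of GC fraction over all tested genes. The 5 libraries with the highest slopes, vehicle 1 (4.55), vehicle 3 (3.69), vehicle 2 (3.32), sonidegib 2 (2.72) and combination 1 (2.13), were also the 5 in which the members lay lowest relative to all genes, by -0.22 to -0.39. In the other 11, slopes ran from -3.87 to 0.34 and the members from -0.09 to 0.21. Vehicle 4, at a slope of -0.51, stood with the treated libraries. The slope's part in the differences between groups was not tested beyond the fits with the trend removed, which also re-centre the libraries.

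**Figure D4:**
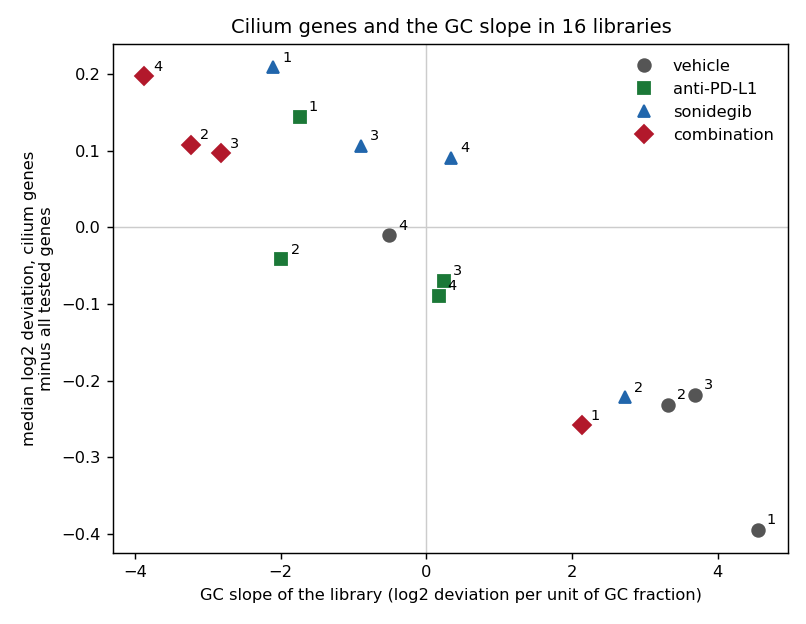
GC slope of each of the 16 libraries (x axis, log2 deviation per unit of GC fraction) against the median log2 deviation of the tested members minus that of all tested genes (y axis). Vehicle 1, 2 and 3, sonidegib 2 and combination 1 form the lower right of the plot, and vehicle 4 lies among the treated libraries.

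Markers of other cells and of RNA quality also differed between combination and vehicle. These counts stand beside the 11.3% of all tested genes that passed, and beside 3 genes in all without vehicle 3. Fibroblast markers passed in 5 of 10, all higher, with Dcn at 3.15 and Lum at 2.75; their sum was 133 to 183 FPKM in vehicle, 142 to 332 with anti-PD-L1, 163 to 288 with sonidegib and 184 to 506 FPKM in combination tumours. T cell markers passed in 3 of 3 tested (8 listed) and adipocyte markers in 1 of 1 tested (6 listed). Macrophage markers passed in 2 of 8, and all of these were higher. A gene high in the combination group alone could meet the filter of 1 FPKM in 4 libraries. The T cell and adipocyte counts therefore cannot be compared with the share of all genes. Sums over the listed T cell markers were 1.48 to 3.80 FPKM in vehicle and 2.46 to 24.2 FPKM in combination tumours. In the same order, macrophage markers summed to 191 to 283 and 294 to 513 FPKM, and adipocyte markers to 0.852 to 4.15 and 6.48 to 46.6 FPKM. No marker of these lists was at 0 in all libraries. Luminal, basal and endothelial markers passed in 0 of 9, 0 of 6 and 0 of 6. Mitochondrially encoded transcripts passed in 8 of 13, all higher, and summed to 3552 to 18642 FPKM with vehicle and 12620 to 41949 FPKM with the combination. Heat shock and immediate early genes passed in 1 of 12, Hspa1a (-1.69). The part of cell makeup and RNA quality in the members' differences was not tested.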

How the data were processed

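RNA was measured in 16 mouse mammary tumours, 4 per group. The authors deposited FPKM per gene and library. Per the submitters' processing notes, the builds were GRCm38.p6 and mm10 and the tools Cufflinks and TopHat, whose versions, like the annotation, were not given in the sources used here. The labels' protocols describe stranded, rRNA-depleted libraries, while another label names polyadenylated RNA. Library numbers run through the groups in order, so order and treatment cannot be told apart. Of 55146 identifiers, 53913 matched GENCODE M21 with their version.

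Genes reaching 1 FPKM in 4 or more libraries were fitted as log2(FPKM + 1), which understates changes of low genes, with 1 mean per group in limma 3.58.1 (R 4.3.3; trend and robust), two-sided, with Benjamini-Hochberg adjustment over all 15105 genes at 0.05. Exact permutation tests used scipy 1.17.1. Depth was estimated from the FPKM step of 1 fragment in 4959 single-transcript genes over 2000 bases, after subtracting 200 bases. GC and length trends were removed per library by lowess (span 0.3). The fitted curve includes the level of the library, so these settings also re-centre each library. The procedure was tested on simulated data with independent noise for each gene and changes larger than those of the members. The simulation held no outlying library and no GC slope, so it does not bear on either. In each comparison the text names the members past the threshold or, with fewer than 3, the 3 with the lowest p. Ift88, Kif3a, Kif7, Arl13b, Tulp3, Gpr161, Evc, Evc2, Gli1, Ptch1, Hhip and Smo are also named whatever their test, but not in every comparison. Members and lists were chosen with earlier results of these data known. Alternatives were other scalings, a pseudocount of 0.1, other filters, no trend, the replicate block, trend removal and each library left out.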

Additional observations from a re-analysis of the deposited data

Results flagged for a closer look

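Groups of 4 libraries were examined for the members and for Gli1, Ptch1, Hhip and Smo, and other genes of the Hedgehog list were not included. In 13 of 168 such groups, the highest or lowest library lay far from the other 3. The gap, divided by the range, then exceeded Dixon's critical value for 4 samples. Chance alone flags about 1 in 20.

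Combination 1 stood apart in 4 members. It was highest for Ift43 (13.9 FPKM, others 9.11 to 9.82), Evc (0.641, others 0.210 to 0.253) and Evc2 (1.24, others 0.149 to 0.291), and lowest for Dync2h1 (2.14, others 5.37 to 5.81). Without it, 16 members passed between combination and vehicle in place of 4, and 28.0% of all tested genes in place of 11.3%.

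Anti-PD-L1 1 was highest for Wdr35 (4.16 FPKM, others 3.05 to 3.18), Bbs9 (7.92, others 6.22 to 6.42) and Arl13b (6.77, others 4.33 to 4.47). Anti-PD-L1 3 was lowest for Ift140 (3.39 FPKM, others 4.85 to 4.96). Vehicle 4 was highest for Ift122 (1.86 FPKM, others 0.987 to 1.04) and sonidegib 1 for Gpr161 (0.748, others 0.544 to 0.560).

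Among the Hedgehog genes included, Smo was highest in vehicle 2 (27.3 FPKM, others 14.4 to 15.3). Hhip was listed at 0.0133 FPKM in anti-PD-L1 2 and at 0.00434 in sonidegib 1, with the other 3 libraries of each group listed at 0; these values are near what 1 fragment is worth.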

How the results depend on the processing

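Members called between combination and vehicle numbered 4 as reported, 7 with median-of-ratios scaling (adding Bbs12, Ift80 and, lower, Evc2), 6 with quantile normalization (Bbs7, Dync2li1 and Ift20 higher, Evc, Evc2 and Ift140 lower, Ift74 lost), 6 with a pseudocount of 0.1, 4 with a mean of at least 1 FPKM, 3 without trend and robust estimation, 2 with the replicate block, 1 with the GC trend removed, and 0 with no filter or with the GC and length trends removed; the last 2 called 8 and 29 of all genes, and the cause was not tested. All tested genes called numbered 1703 (1559 higher, 144 lower), 2772 (1539 higher, 1233 lower) with median-of-ratios scaling, 2634 (1326 and 1308) with quantile normalization, 1177 with the replicate block and 551 with the GC trend removed. Leaving out each library gave 0 to 21 members between combination and vehicle, and 0 to 18 for sonidegib and 0 to 14 for anti-PD-L1 against vehicle. Across the 4 groups it gave 0 to 12 (12 without vehicle 4, 6 without combination 1). The other 4 comparisons kept 0 under every setting. For the counts across the 4 groups, and with a pseudocount of 0.1, the mean filter or no trend, the share of all genes is not given here. Those counts are therefore not read as a result about the members. The replicate numbers share only a number: of 24 same-numbered pairs, correlations of deviations ran from -0.434 to 0.343, 4 were over 0.1, and 0 of 16 libraries was most like its own number. Against vehicle, with the GC trend and with both trends removed, Ift88 turned to -0.327 and -0.303 (anti-PD-L1; -0.0129 with quantile normalization), -0.170 and -0.121 (sonidegib) and -0.140 and -0.0704 (combination), and Arl13b to -0.0567 and -0.0383 (anti-PD-L1), -0.0194 (sonidegib, GC alone) and -0.217 and -0.169 (combination). Ptch1 with anti-PD-L1 turned to -0.200 (median-of-ratios), -0.236 (quantile), -0.304 and -0.271 (trends removed), and Smo with the combination to -0.324 (median-of-ratios) and -0.295 (quantile). Left-out libraries turned the sign of differences from vehicle that had passed no test: Ptch1 ranged from -0.119 to 0.218 (anti-PD-L1) and -0.300 to 0.0626 (sonidegib), Smo from -0.245 to 0.0518 (anti-PD-L1), -0.244 to 0.0487 (sonidegib) and -0.109 to 0.223 (combination), Evc from -0.501 to 0.0510 (sonidegib), and, in mean FPKM, Kif17 from -0.0300 to 0.0311 (anti-PD-L1) and Gpr161 from -0.0316 to 0.0529 (combination). Depth limits Hhip, which was listed at 0 in most libraries, and Gli1, whose lowest values are a few fragments.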
